A study of Mus musculus with 2 samples.

Results

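The microRNAs (miRNAs) described here are 8 loci known from red cells, myeloid cells, lymphocytes and microglia, read in the midbrain of mouse embryos. They were chosen by name (Mir451a, Mir144, Mir486, Mir223, Mir142b, Mir150, Mir155 and Mir146) and found by gene identifier among 1973 miRNA loci with counts. The series held 1 group of 2 biological replicates: midbrain from B6NCrl embryos at day 14.5, with no treatment or engineered allele named in the labels. Each replicate is given as the midbrain of a single pup, while the sex field reads as a mix of both sexes. The collection days differ, but both pups are called pup 1 of pregnancy 2 and carry a single donor identifier. With 1 library per collection day, animal, day and library preparation cannot be told apart, and a difference between the replicates is no comparison of conditions.

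A miRNA is cut from a hairpin precursor, and its seed, bases 2 to 8 of the mature strand, pairs with target messages. Red cells are rich in miR-451a and miR-144, which come from a shared primary transcript that the erythroid factor GATA1 activates. White cells and microglia, the resident macrophages of the brain, carry miR-142 throughout the blood lineage, miR-223 mainly in granulocytes and monocytes, and miR-150 mainly in mature lymphocytes. Toll-like receptor and NF-kB signalling induces miR-155 and miR-146a. Embryonic brain holds microglia derived from the yolk sac, and blood runs in its vessels.

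The sequences below show how distinct these miRNAs are, since a read is counted at a locus only where its sequence points there alone. Capitals mark the seed. RefSeq's table, on GRCm38.p6, gave a mature sequence for 7 of the 8 loci; Mir486 had no entry.

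miR-451a: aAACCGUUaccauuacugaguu

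miR-144-3p: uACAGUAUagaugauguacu

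miR-223-3p: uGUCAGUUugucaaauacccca

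miR-142a-5p: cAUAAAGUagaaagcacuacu

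miR-142a-3p: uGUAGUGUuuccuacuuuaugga

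miR-142b: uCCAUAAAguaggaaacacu

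miR-155-5p: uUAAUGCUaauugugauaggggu

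miR-146a-5p: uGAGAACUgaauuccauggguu

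miR-146b-5p: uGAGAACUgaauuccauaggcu

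Among the member strands shown, only the seed of miR-146a-5p also occurred in another mature miRNA of that table, namely miR-146b-5p. Counted from the 5′ end, miR-146b-5p differs from miR-146a-5p by G18A and U21C. All 20 bases of miR-142b are the exact reverse complement of a stretch of miR-142a-3p, because Mir142b lies on the strand opposite Mir142. The counts are per hairpin and do not separate its arms.

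All 8 loci had at least 10 reads in each library, the minimum used here to call a locus detected, against 20.2% of the 1973 loci. The 8 loci together took 0.123% of the sense reads in replicate 1 and 0.0526% in replicate 2. The exact Clopper-Pearson 95% intervals were 0.121 to 0.126 and 0.0504 to 0.0549, so the summed level was 2.34 times as high in replicate 1. Replicate 1 held 7302633 sense reads and replicate 2 held 3966727, and levels are given in CPM, the count scaled to these totals. The floor at a locus without reads, set at 3 reads, was 0.411 CPM for replicate 1 and 0.756 CPM for replicate 2. Intervals and floors describe counting error alone and leave out the spread between animals, collection days and library preparations. They treat each read as a separate observation, which PCR copies of a molecule are not, so the intervals may be too narrow.

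**Figure D1:**
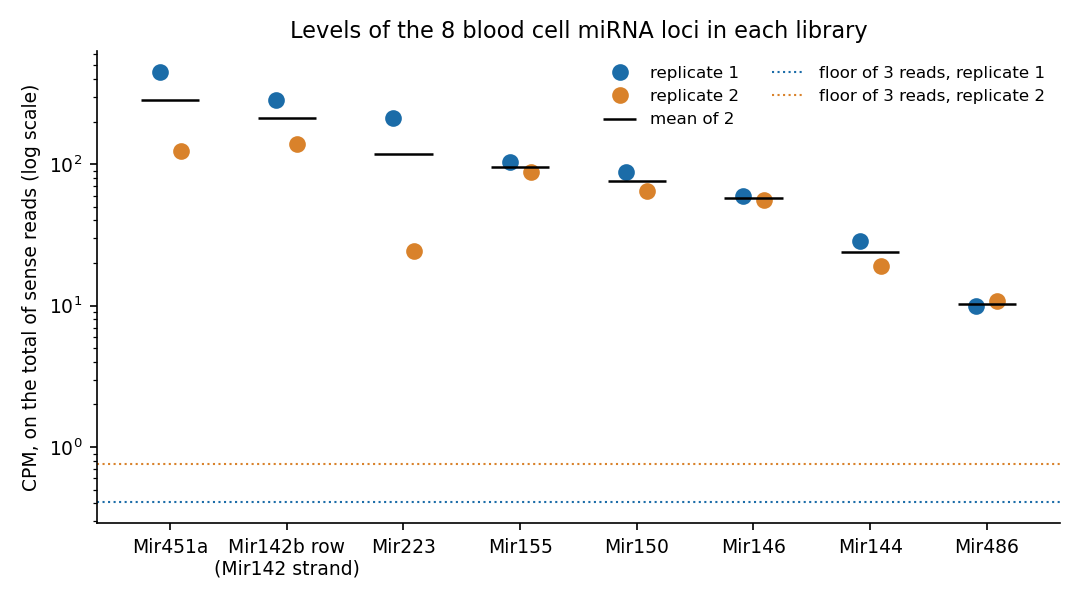
Level of each member locus in each library, in CPM on a log axis, with the mean of the 2 replicates as a bar and the level of 3 reads as dotted lines. Mir451a, the Mir142b row and Mir223 stand well apart between the replicates, while Mir155, Mir146 and Mir486 nearly coincide, and all points lie above the floor.

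Of the red cell members, Mir451a was the most abundant. Its 72-nt hairpin is shown for its unusual build: Argonaute 2 cuts it without Dicer, and the mature strand, in capitals, runs from the 5′ arm into the loop.

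Mir451a hairpin: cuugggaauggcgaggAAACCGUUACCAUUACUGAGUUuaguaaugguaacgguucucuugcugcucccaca

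Mir451a (ENSMUSG00000070065.1) occupies positions 78073170 to 78073241 of chromosome 11, plus strand, in mm10. Mir144 (ENSMUSG00000065401.1) lies 99 bases upstream, from 78073005 to 78073070, and neither overlaps another gene on its strand. Mir451a had 3264 reads, or 447 CPM, in replicate 1 and 489 reads, or 123 CPM, in replicate 2. It was thus 3.63 times as high in replicate 1, with a 95% counting interval of 3.30 to 3.995. The spread between the replicates was wide, at 285 ± 229 CPM (SD, n = 2).

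Mir144 had 210 reads (28.8 CPM) in replicate 1 and 75 reads (18.9 CPM) in replicate 2. It was higher in replicate 1 as well, by 1.52-fold with an interval of 1.16 to 2.01, short of 2-fold. Mir451a therefore had 15.5 reads for each read of Mir144 in replicate 1 (13.5 to 18.0) and 6.52 in replicate 2 (5.10 to 8.43). The intervals, which cover counting error alone, do not overlap. The ratio of reads of this pair from a shared primary transcript thus differed between the libraries. Their hairpins share no exact stretch longer than 5 nt. On the strand opposite Mir451a, where Mir451b lies, neither library had a read (0 reads, under the floors of 0.411 and 0.756 CPM).

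Mir486 (ENSMUSG00000070084.3), in an intron of the red cell ankyrin gene Ank1 on chromosome 8 from 23142555 to 23142682, was the lowest member. It had 72 reads (9.86 CPM) in replicate 1 and 43 reads (10.8 CPM) in replicate 2. The ratio of replicate 1 to replicate 2 at this locus was 0.910, with an interval of 0.615 to 1.36. The interval includes 1, so no difference was resolved, but equal levels are not shown. Mir451a had 45.3 reads per read of Mir486 in replicate 1 (35.9 to 58.1) and 11.4 in replicate 2 (8.32 to 15.9), intervals that do not overlap. Mir144 had 2.92 (2.22 to 3.87) and 1.74 (1.18 to 2.60), intervals that overlap. The overlap does not show an equal ratio in the libraries, and Mir144 had more reads than Mir486 in both. The Mir486 hairpin holds a 22-nt stretch whose exact reverse complement also lies in the hairpin, the longest such stretch among the 398 detected loci, whose median is 8 nt. A read lying wholly inside that stretch maps to both strands of the locus, and reads mapping to several places were tallied apart from genes, so the count of Mir486 may leave out part of its reads. In these data 36.2% of all reads in replicate 1 and 36.9% in replicate 2 mapped to several places.

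Of the white cell members, Mir223 differed most between the libraries. Mir223 (ENSMUSG00000076066.1) lies on chromosome X from 96242817 to 96242926 in an exon of the noncoding gene F630028O10Rik. It had 1545 reads (212 CPM) in replicate 1 and 97 reads (24.5 CPM) in replicate 2. The level in replicate 1 was 8.65 times that in replicate 2 (95% counting interval 7.04 to 10.7), and the SD of 132 CPM exceeded the mean of 118 CPM. Of 398 detected loci it ranked in place 2 by size of difference, behind Mir199b, a miRNA of mesenchyme.

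The Mir142b row (ENSMUSG00000065420.2), on chromosome 11 from 87756841 to 87756955 on the minus strand, had no read on its own strand in either library. On the plus strand, where Mir142 lies from 87756864 to 87756927 in an intron of Mir142hg, it held 2067 reads (283 CPM) in replicate 1 and 551 reads (139 CPM) in replicate 2. These reads are taken here as Mir142, the miRNA found across blood cells. The level was 2.04 times as high in replicate 1, and the interval of 1.85 to 2.24 spans 2-fold. For miR-142b itself, 0 reads allow up to 0.411 and 0.756 CPM.

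Mir155 (ENSMUSG00000065397.1), in an exon of Mir155hg on chromosome 16 from 84714140 to 84714204, had 756 reads (104 CPM) in replicate 1 and 351 reads (88.5 CPM) in replicate 2. Mir150 (ENSMUSG00000065495.1), on chromosome 7 from 45121757 to 45121821 and outside any other gene, had 641 reads (87.8 CPM) and 258 reads (65.0 CPM). Mir146 (ENSMUSG00000065601.1), the gene of miR-146a on the minus strand of chromosome 11 from 43374397 to 43374461, had 432 reads (59.2 CPM) and 223 reads (56.2 CPM). All 3 stood near each other in the libraries, with ratios of replicate 1 to replicate 2 of 1.17 (1.03 to 1.33), 1.35 (1.17 to 1.57) and 1.05 (0.893 to 1.24). For Mir146 the interval includes 1. The Mir146 hairpin shares 20 nt with 1 other hairpin, so part of its reads may be missing from the count.

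**Figure D2:**
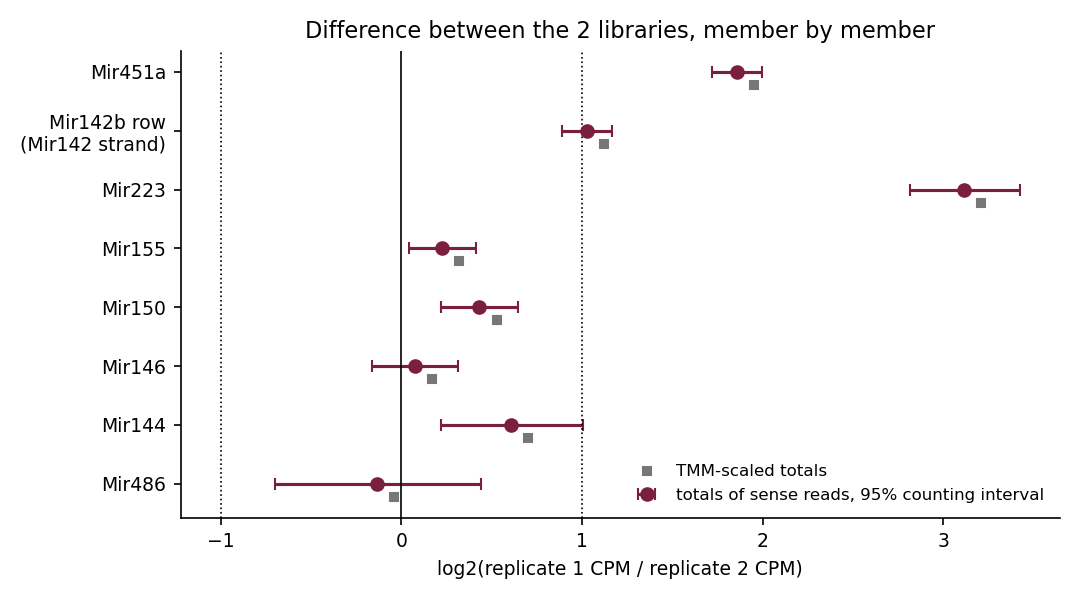
Log2 ratio of replicate 1 to replicate 2 for each member, with the 95% counting interval as a bar and the value with totals scaled by edgeR's trimmed mean (TMM) as a grey square; dotted lines mark 2-fold. Mir223, at 8.65-fold, and Mir451a, at 3.63-fold, lie beyond 2-fold with their whole interval, the Mir142b row straddles the line, and Mir486 and Mir146 straddle 0.

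Within the white cell members the balance shifted with the library. Mir223 had 2.04 reads per read of Mir155 in replicate 1 (1.87 to 2.23) and 0.276 in replicate 2 (0.218 to 0.347), a reversal of their order. Against Mir142, Mir223 had 0.747 reads per read in replicate 1 (0.699 to 0.799) and 0.176 in replicate 2 (0.140 to 0.219). Mir142 had 2.73 reads per read of Mir155 in replicate 1 (2.51 to 2.98) and 1.57 in replicate 2 (1.37 to 1.80). Per read of Mir150 it had 3.22 (2.95 to 3.53) and 2.14 (1.84 to 2.49). Neither pair of intervals overlaps. Mir155 had 1.75 reads per read of Mir146 in replicate 1 (1.55 to 1.97) and 1.57 in replicate 2 (1.33 to 1.87), intervals that overlap. Those of Mir150 against Mir155 and against Mir146 overlap as well. Overlap does not show an equal ratio in the libraries. Without Mir451a and Mir223 the other 6 members had a summed level of 572 CPM (replicate 1) and 378 CPM (replicate 2), 1.51-fold apart. Mir451a and Mir223 together made up 53.5% of the member reads in replicate 1 and 28.1% in replicate 2.

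By mean level per locus the order was Mir451a, Mir142 (read at the Mir142b row, 211 ± 102 CPM), Mir223, Mir155 (96.0 ± 10.6 CPM), Mir150 (76.4 ± 16.1 CPM), Mir146 (57.7 ± 2.08 CPM), Mir144 (23.8 ± 6.96 CPM) and Mir486 (10.3 ± 0.693 CPM). The first 6 places were not all resolved. The ranges of Mir451a and Mir142 over the 2 libraries overlapped, and the range of Mir223, from 24.5 to 212 CPM, took in all values of Mir155, Mir150 and Mir146 and overlapped that of Mir144, although Mir142 exceeded Mir223 and Mir223 exceeded Mir144 in both libraries. Mir155, Mir150, Mir146, Mir144 and Mir486 did not overlap as neighbours and kept this order among themselves in both libraries. The counts of Mir146 and Mir486 may lack reads that map to several places, so the places of these loci are uncertain. Per 100 nt of annotated hairpin, the level of Mir223 (107 CPM per 100 nt) fell behind those of Mir155 (148) and Mir150 (118), and the other places stayed the same. The libraries are labelled as RNA below 30 nt, shorter than these hairpins, so counts need not grow with hairpin length. In replicate 2 alone Mir142 led, and Mir223 stood in place 6. These levels lay in the middle and lower part of the detected loci, from place 164 of 398 for Mir451a to place 310 for Mir486.

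Of the 8 members 3 differed by more than 2-fold between the libraries, where the background over all detected loci was 3.77% in either direction. All 3 were higher in replicate 1 (background 3.27%) and none was higher in replicate 2 (background 0.503%). Of the members 7 were higher in replicate 1 by any amount, against 41.2% of detected loci, with Mir486 the exception. The counting intervals of Mir486 and of Mir146, which is among the 7, include a ratio of 1. The median log2 ratio of replicate 1 to replicate 2 was 0.52 for the members and -0.09 over all detected loci. Since the members were chosen with earlier results of these libraries known, these counts are descriptions.

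**Figure D3:**
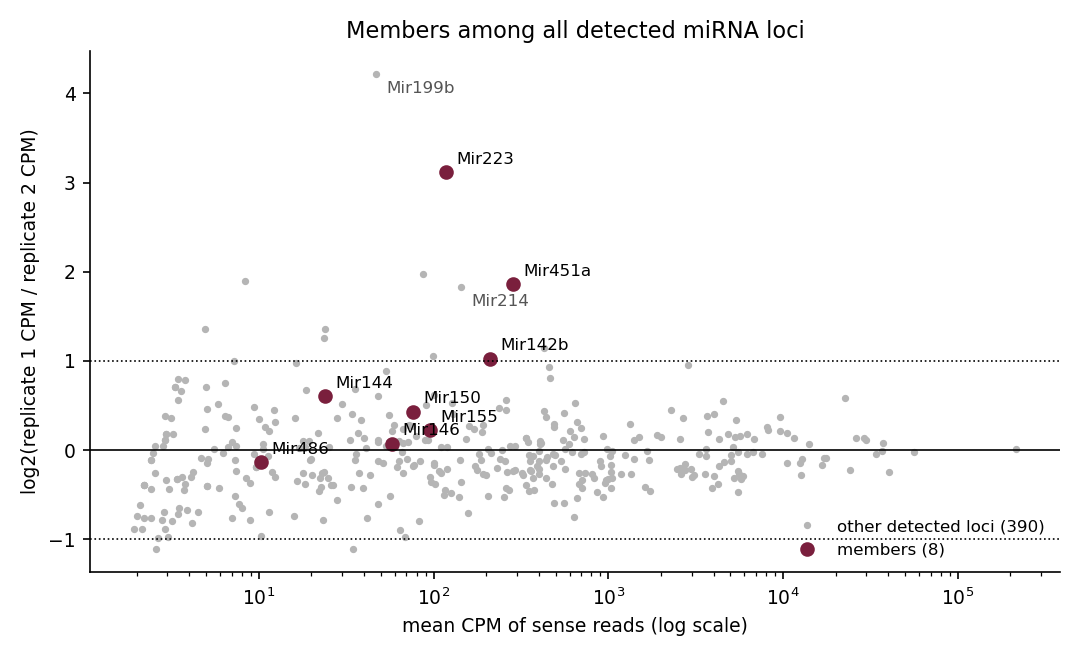
Log2 ratio of replicate 1 to replicate 2 against mean CPM (log axis) for the 398 detected loci, with the 8 members in dark red. Mir223 and Mir451a stand above the cloud at their level, as do the labelled mesenchymal loci Mir199b and Mir214. Mir155, Mir150, Mir146 and Mir486 lie within it. Other loci past 2-fold, such as Mir483 (3.94-fold) and Mir6236 (3.72-fold), are not labelled.

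Other miRNAs known from blood and immune cells were taken from a list that leaves out the members. Of 11 such loci 8 had a count here and 7 were detected, 2 higher in replicate 1 (41.2% over all detected loci) and 5 higher in replicate 2, and 0 of 7 passed 2-fold (3.77% over all). Whether this list differed from the members was not tested. Mir342, in an intron of the gene Evl in many white cells, had the highest level of them at 8803 CPM in replicate 1 and 7349 CPM in replicate 2. Mir221 and Mir222, which restrain red cell growth through the receptor Kit, stood at 174 and 95.2 CPM in replicate 1 and at 210 and 106 CPM in replicate 2. Mir147, a miRNA induced in activated macrophages, had 9.45 and 10.3 CPM. Mir146b, the seed partner of Mir146, had 11 and 10 reads; since the 2 hairpins share 20 nt, reads that fit both may be in neither count. Mir511, in the macrophage receptor gene Mrc1, had 15 reads in replicate 1 and 2 in replicate 2, a ratio of 4.07 with a counting interval of 0.947 to 36.7; its low count in replicate 2 keeps it out of the 7. Several loci of this list, such as Mir22 (5475 and 5537 CPM) and Mir21a (5176 and 4553 CPM), are also expressed in many other cell types. In bulk tissue the counts do not tell which cells gave the reads of Mir342 or of any other locus on this list.

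Loci of other cell types moved between the same 2 libraries, and their part in the member differences was not tested. Over all 398 detected loci, 164 (41.2%) were higher in replicate 1 and 234 in replicate 2, and 15 (3.77%) passed 2-fold. All 3 detected loci of the endothelium and vessel wall list were higher in replicate 1, led by the endothelial Mir126a at 27037 CPM against 18011, and the list had sums of 32566 and 21781 CPM, with Mir145b at 0 reads. Both detected loci of the 4 on the mesenchyme and meninges list were higher in replicate 1: Mir214 with 224 CPM against 63.3, and Mir199b with 88.7 CPM against 4.79. Their list summed to 320 and 69.1 CPM, and 3 of its 4 loci, Mir199b among them, share 20 nt with another hairpin. Of the choroid plexus and ciliated cell list, 4 of 5 detected loci of 7 were higher in replicate 1, with sums of 2037 and 1503 CPM and Mir449a, at 2.21-fold, as the locus past 2-fold. Of the neural list, 6 of 7 detected loci of 9 were higher in replicate 2, with sums of 30789 CPM in replicate 1 and 34611 CPM in replicate 2. Mir149 and Mir137 led the neural list in this midbrain tissue, whereas the neuronal Mir124a loci had at most 11.6 CPM. The other 7 of the 9 neural loci with a count, Mir124a loci included, share 20 nt with another hairpin and may lack reads for that reason, so the order within this list is uncertain. In bulk tissue, fewer cells of a type and less RNA per cell cannot be told apart.

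**Figure D4:**
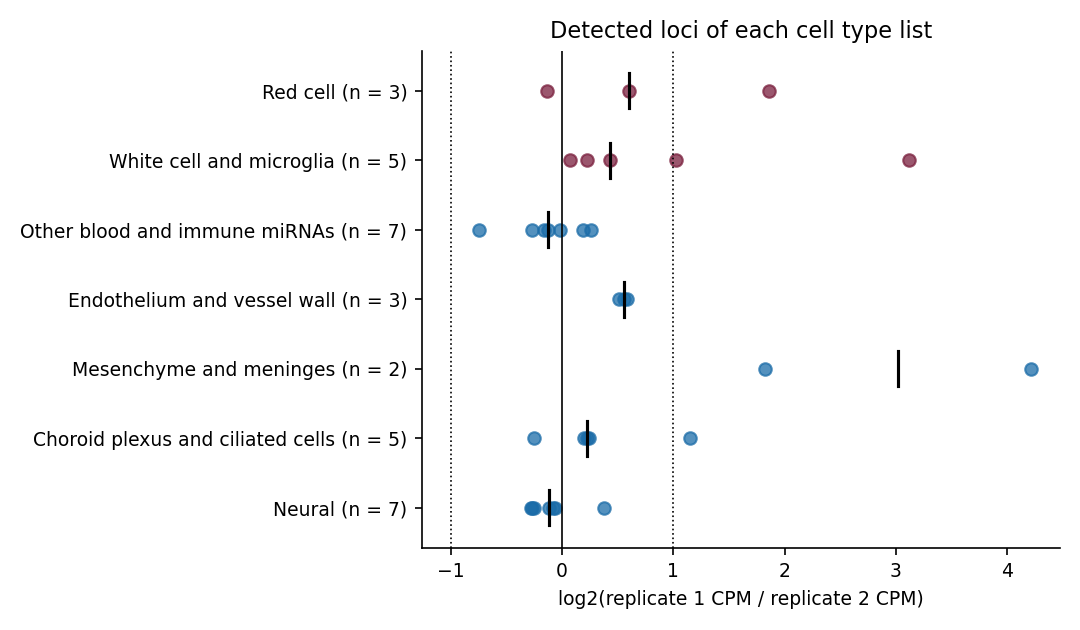
Log2 ratio of replicate 1 to replicate 2 for each detected locus of the cell type lists, with the median as a vertical bar and dotted lines at 2-fold. The red cell and white cell members spread widely, the 3 vessel loci sit together to the right of 0, and the other blood and immune loci lie on both sides of 0.

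The loci nearest to each member in level over the 2 libraries differed between members. By Euclidean distance in log2(CPM + 1), Mir223 lay nearest to Mir483 (138 and 35.0 CPM; distance 0.791) and Mir214 (distance 1.34). Mir451a lay nearest to the Mir142b row (distance 0.679) and Mirlet7a-1 (309 and 208 CPM; distance 0.922). Mir155 lay nearest to Mir670 (distance 0.0911), Mir146 to Mir1981 (distance 0.0801), Mir150 to Mir6944 (distance 0.112), Mir144 to Mir34b (distance 0.304) and Mir486 to Mir147 (distance 0.0839). The Mir142b row lay nearest to Mir455 (distance 0.521). The distance to the nearest locus was thus larger for Mir223 and Mir451a than for the other 6 members, with the Mir142b row next. With 2 libraries this describes levels and says nothing of shared control.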

How the data were processed

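The authors deposited 1 table of raw read counts per library, for both strands together, the annotated strand and the opposite strand; assembly mm10 is named per the labels, and annotation M4 in the text deposited with each library. The sources used here name neither aligner nor counter. The 4 classes of reads outside genes were left out of totals. Symbols came from GENCODE M21 by gene identifier (1894 of 1973 loci). CPM used the sense total; Mir142b was read from the opposite strand. Ratios between libraries carry exact Clopper-Pearson intervals from the split of the reads (scipy 1.17.1). The calculation was run on simulated counts with random counting error only. That run held no PCR copies and no spread between animals, so it cannot show that the intervals cover these. With 1 group there is no contrast, so no test between groups was run; edgeR 4.0.16 (TMM) and DESeq2 1.42.0 gave alternative totals only. Named loci were the members, genes within 10 kb, the 2 nearest loci in level and leading loci of each list; others were chosen after their values were seen. The members and lists were chosen with earlier results of these data known.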

Additional observations from a re-analysis of the deposited data

Results flagged for a closer look

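Reads on the strand opposite Mir486, which no comparison above uses, numbered 9 in replicate 1 and 5 in replicate 2, above the 3 reads that a count of 0 allows. They made up 11.1% of the reads counted at the locus in replicate 1, with an exact 95% binomial interval (Clopper-Pearson) of 5.21 to 20.05. In replicate 2 they made up 10.4%, with an interval of 3.47 to 22.7. Reads wholly inside the 22-nt stretch described above map to both strands and are in neither count. The share thus covers only the remaining reads. Over the pooled reads of 1952 other loci, leaving out those with more reads on the opposite strand in both libraries, opposite-strand reads made up 0.00447% and 0.00519%. Mir3107 lies on that strand of the locus and was not analysed here by itself. Of 397 detected loci that were mostly sense, Mir486 was the only one with a share this high in both libraries.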

How the results depend on the processing

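The 3 members past 2-fold (Mir451a, Mir223 and the Mir142b row) were the same with TMM-scaled totals, DESeq2 size factors and a pseudocount of 1 CPM. They were also the same with a minimum of 1 read in each library, both strands summed and a total without the most abundant locus. At 1.5-fold Mir144 joined them. The share of all loci past the fold rose from 3.77% to 16.8% at 1.5-fold and to 16.5% (106 of 641) with the minimum of 1 read. It lay between 3.27% and 4.52% under the other 5. Across 4 alternatives for each of the 8 members, all 32 ratios kept their direction, but few could have changed it. A pseudocount cannot reverse a ratio. TMM and DESeq2 totals moved every ratio toward replicate 1, where 7 members already lay, so they could have reversed Mir486 alone. Summing both strands changed the counts of Mir486 and Mir150 only. The intervals of Mir486 and Mir146 include 1, so the direction of these loci is not established. TMM moved the median log2 ratio (replicate 2 to replicate 1) of detected loci from 0.09 to -0.003. At a minimum of 100 reads in each library 5 of 8 members were detected (13.9% of all loci), without Mir223, which had 97 reads in replicate 2, Mir144 and Mir486. Leaving out either replicate had to leave 8, since all 8 members had passed the minimum in both libraries. Per 100 nt of hairpin 5 members kept their place in the order, and with each replicate left out 2 to 8 did, the 2 being the count without replicate 1. No paired analysis was possible because there is a single group. Depth limits the ratio of Mir486, with 43 reads in replicate 2, to within a factor of 0.615 to 1.36.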
